A study of Mus musculus with 6 samples.

Results

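The haemoglobin and erythroid genes described here are Hba-a1, Hba-a2, Hbb-bs, Hbb-bt, Alas2, Slc4a1 and Bpgm, chosen by gene name from the deposited expression table; all 7 were found among its 21900 genes. They were measured by RNA-seq of mouse lung in 6 libraries, all from mice given a high fat diet for 10 weeks. The groups were labelled Cyp1b1 knockout, here KO-labelled (3 libraries, of which library 3 is male and libraries 1 and 2 are female), and wild type, here WT-labelled (3 libraries, again with library 3 male). CYP1B1 is a cytochrome P450, and the study asked what its loss does in the lung under this diet. The labels name no strain or age, do not say how the Cyp1b1 allele was made and do not state that each library came from its own animal; the p-values rest on how far the libraries lie apart, which may be technical. Whether blood was flushed from the lungs, or globin RNA removed, is not given in the sources used here.

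Haemoglobin carries oxygen in red blood cells as a tetramer of alpha and beta globin chains, each holding a haem group. Red cell precursors make the globins and haem in quantity before they lose the nucleus, and the young red cells that enter the blood, the reticulocytes, still hold globin messenger RNA. Blood held in the capillaries of a lung can bring such RNA into a lung sample. Globin transcripts have also been described in alveolar type 2 cells, the surfactant-making cells of the lung. Among the other genes, Alas2 encodes the erythroid form of the enzyme that starts haem synthesis, Slc4a1 the band 3 anion exchanger of the red cell membrane, and Bpgm the enzyme that makes 2,3-bisphosphoglycerate, which lowers the affinity of haemoglobin for oxygen.

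Levels are in CPM, counts per 1000000 reads (1 M) assigned to genes, from 20.2 to 27.6 M such reads per library. Cyp1b1 itself was higher in the KO-labelled libraries, at 51.2, 56.1 and 48.4 CPM in libraries 1, 2 and 3, against 12.5, 19.04 and 18.5 CPM in the WT-labelled ones, so the groups are called by their labels here (limma adjusted p = 0.0588). A level per gene does not show which exons gave the reads. Xist and Ddx3y matched the labelled sex in all 6 libraries. The KO-labelled male stood apart from the other libraries in many genes, and the sex and genotype differences of the members are given with and without it. Many other results are given over all 6 libraries only. The lung markers of alveolar type 2 cells were present throughout, with summed levels from 14957 to 21015 CPM.

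The 4 globin genes sit as pairs in the alpha cluster and the beta cluster. Positions are on mm10. Hba-a1 (ENSMUSG00000069919, chromosome 11, 32283511 to 32284465) and Hba-a2 (ENSMUSG00000069917, chromosome 11, 32296489 to 32297298) lie on the plus strand, 12.02 kb apart. Hbb-bs (ENSMUSG00000052305, chromosome 7, 103826534 to 103828096) and Hbb-bt (ENSMUSG00000073940, chromosome 7, 103812524 to 103813996) lie on the minus strand, 12.5 kb apart. Alas2 (ENSMUSG00000025270) lies on chromosome X from 150547375 to 150570638, Slc4a1 (ENSMUSG00000006574) on chromosome 11 from 102348824 to 102366203, and Bpgm (ENSMUSG00000038871) on chromosome 6 from 34476207 to 34505613.

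The members of each globin pair are near-copies, which bears on how far their separate levels can be trusted. In the GENCODE M21 transcripts the coding sequences of Hba-a1 and Hba-a2 (426 bases each) differ at 1 base, C381T, and those of Hbb-bs and Hbb-bt (441 bases each) at 1 base, C417T, with positions counted from 1 at the A of the start codon and the base of Hba-a1 or Hbb-bs given first. The stretches around these positions, with 20 bases on each side and the differing base in capitals, are the coding sequence that tells the copies apart.
Hba-a1: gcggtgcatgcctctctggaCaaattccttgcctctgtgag
Hba-a2: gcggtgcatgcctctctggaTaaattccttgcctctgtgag
Hbb-bs: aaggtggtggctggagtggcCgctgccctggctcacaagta
Hbb-bt: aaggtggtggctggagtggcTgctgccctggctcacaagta
Of all windows of 50 bases in the Hba-a1 transcript, 67.5% occur unchanged in that of Hba-a2, and 65.8% of those of Hbb-bs occur in that of Hbb-bt. No window was shared between Hba-a1 and Hbb-bs. How the authors' counting divided reads that match both copies is not given in the sources used here, so the level of each copy is uncertain and the sum over a pair is the firmer value.

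Promoter windows were found for 6 of the 7 genes in the RefSeq table (GRCm38.p6, 250 bases before to 50 after the annotated start). Slc4a1 had no window there. Any link between the motifs in these windows and the levels of the members was not tested. Capitals mark matches to any of 4 motifs, read on both strands, which can overlap one another. The first is GATAA, the core that GATA factors bind in erythroid genes. The next is CACCC, bound by factors such as KLF1. The others are the CCAAT box and the TATAA box of general promoters. The windows are Hba-a1 at chr11:32283422-32283721 on the plus strand, Hbb-bs at chr7:103827879-103828178 and Hbb-bt at chr7:103813874-103814173 on the minus strand, Alas2 at chrX:150547167-150547466 and Bpgm at chr6:34476106-34476405 on the plus strand, each written from 5′ to 3′ along its gene.
Hba-a1: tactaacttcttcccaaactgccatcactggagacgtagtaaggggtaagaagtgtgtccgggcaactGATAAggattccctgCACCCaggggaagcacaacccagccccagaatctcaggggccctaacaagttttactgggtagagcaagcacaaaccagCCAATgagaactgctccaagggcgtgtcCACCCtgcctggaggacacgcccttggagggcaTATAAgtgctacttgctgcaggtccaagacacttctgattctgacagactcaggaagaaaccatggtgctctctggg
Hbb-bs: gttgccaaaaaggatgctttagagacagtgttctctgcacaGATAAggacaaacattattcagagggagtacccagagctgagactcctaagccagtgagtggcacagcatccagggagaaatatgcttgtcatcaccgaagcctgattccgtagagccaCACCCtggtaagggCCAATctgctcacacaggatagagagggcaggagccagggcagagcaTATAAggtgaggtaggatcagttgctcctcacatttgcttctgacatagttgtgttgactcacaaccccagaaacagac
Hbb-bt: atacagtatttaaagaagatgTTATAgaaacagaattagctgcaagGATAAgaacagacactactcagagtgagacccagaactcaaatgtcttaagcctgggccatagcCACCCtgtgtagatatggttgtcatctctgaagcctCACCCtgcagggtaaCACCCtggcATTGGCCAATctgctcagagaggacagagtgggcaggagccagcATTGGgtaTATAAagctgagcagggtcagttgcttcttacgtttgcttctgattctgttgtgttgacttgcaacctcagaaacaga
Alas2: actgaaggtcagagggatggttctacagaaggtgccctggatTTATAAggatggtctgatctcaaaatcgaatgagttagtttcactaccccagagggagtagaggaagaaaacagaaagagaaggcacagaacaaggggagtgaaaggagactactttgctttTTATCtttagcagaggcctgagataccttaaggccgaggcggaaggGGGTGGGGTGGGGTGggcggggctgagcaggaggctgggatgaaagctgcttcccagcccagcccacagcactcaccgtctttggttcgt
Bpgm: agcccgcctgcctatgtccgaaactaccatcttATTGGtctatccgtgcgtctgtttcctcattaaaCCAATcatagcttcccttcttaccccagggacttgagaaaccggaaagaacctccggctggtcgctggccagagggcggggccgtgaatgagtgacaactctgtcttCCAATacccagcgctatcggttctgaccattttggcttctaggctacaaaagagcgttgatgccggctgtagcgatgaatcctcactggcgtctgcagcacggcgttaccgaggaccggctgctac
The Hba-a2 window shares an identical stretch of 297 of its 300 bases with that of Hba-a1 and is not printed. All 4 globin windows held each of the 4 motifs, which 1.51% of the 32851 windows in the table do. The Alas2 window held matches to all but CCAAT, and the Bpgm window to CCAAT alone. The TATAA matches of Alas2 began at -208 and -207 bases from the annotated start, while each globin window had one between -30 and -27. Singly, GATAA occurs in 25.4%, CACCC in 57.5%, CCAAT in 37.4% and TATAA in 24.9% of all windows. These matches are letters in a window and show neither binding nor use.

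The alpha globin genes were highest in the KO-labelled male, next in the WT-labelled male and lowest in the females of both labels. Hba-a1 was at 1401 CPM in the KO-labelled male and at 360.1 and 221 CPM in the females of that label, against 753 CPM in the WT-labelled male and 423 and 245 CPM in its females. Hba-a2 was at 1781 CPM in the KO-labelled male and at 394 and 254 CPM in its females, against 790.2 CPM in the WT-labelled male and 481 and 277 CPM in its females. Each male lay above all 4 females, while the females of the 2 labels overlapped. In bulk lung, more cells of a type and more RNA per cell cannot be told apart.

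The beta globin genes followed the same order. Hbb-bs, the major adult beta gene in these libraries, was at 2141 CPM in the KO-labelled male and at 441 and 318 CPM in its females, against 1008 CPM in the WT-labelled male and 584 and 327 CPM in its females. Hbb-bt, its neighbour, was at 429 CPM in the KO-labelled male and at 63.6 and 48.6 CPM in its females, against 179.7 CPM in the WT-labelled male and 105 and 53.7 CPM in its females. For all 4 globin genes the order of the 6 libraries from low to high was identical: KO-labelled library 2, WT-labelled library 2, KO-labelled library 1, WT-labelled library 1, WT-labelled library 3 and KO-labelled library 3. Together the 4 genes took 0.575% of assigned reads in the KO-labelled male and 0.126% and 0.0841% in its females, against 0.273% in the WT-labelled male and 0.159% and 0.0902% in its females.

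**Figure D1:**
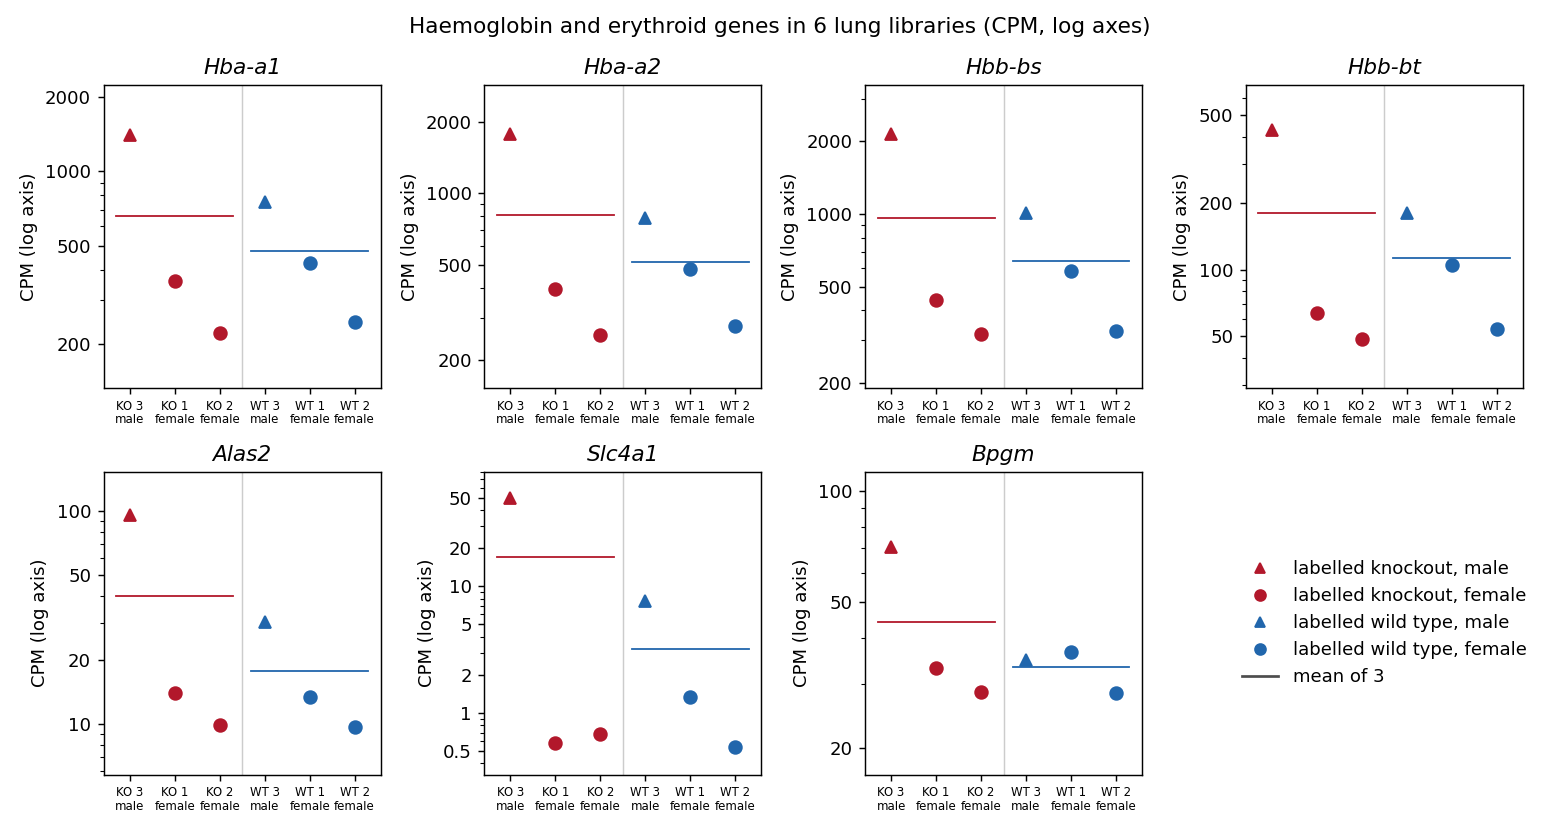
CPM of each gene (log axis) in the KO-labelled libraries (red, left) and WT-labelled libraries (blue, right), with triangles for males, circles for females and a line for the mean of 3 libraries. The KO-labelled male is the highest library in all 7 genes, as it is in 18.1% of all genes in the table. The WT-labelled male is second in all of the 7 but Bpgm.

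The balance between the globin genes varied little while their level varied 6.84-fold. The ratio of alpha to beta globin CPM was 1.34 ± 0.0893 (SD, n = 6) and ran from 1.24 in the KO-labelled male to 1.495 in KO-labelled library 1. Hba-a2 gave 53.2% ± 1.59 (SD, n = 6) of alpha CPM, and Hbb-bt gave 14.5% ± 1.497 (SD, n = 6) of beta CPM. Both shares were highest in the KO-labelled male, at 56.0% and 16.7%. Pearson's r of log2(CPM + 0.5) between pairs of globin genes ran from 0.989 to 0.998 over the 6 libraries and from 0.910 to 0.998 over the 4 females. These r values are descriptions; genes of 1 library share its depth, and paired copies may share reads as well.

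Per kilobase of annotated exon, the 3 major globin genes stood far above the rest. The mean over the 6 libraries was 1046 CPM per kb for Hbb-bs, 994 for Hba-a2, 699 for Hba-a1 and 209 for Hbb-bt, and 11.99 for Alas2, 10.8 for Bpgm and 2.08 for Slc4a1. Hbb-bs exceeded Hba-a2 in 5 of 6 libraries but not in KO-labelled library 1, so these neighbours did not keep their order. Alas2 and Bpgm changed places between the sexes. Alas2 was at 39.9 CPM per kb against 19.7 for Bpgm in the KO-labelled male, and at 12.5 against 9.71 in the WT-labelled male. In each of the 4 females Alas2 was the lower, for instance at 5.80 CPM per kb against 9.20 for Bpgm in KO-labelled library 1.

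Alas2, which sets the pace of haem synthesis in red cell precursors, followed the globins. It was at 95.9 CPM in the KO-labelled male and at 13.9 and 9.89 CPM in its females, against 30.1 CPM in the WT-labelled male and 13.4 and 9.64 CPM in its females. Both males lay above the females, whose values overlapped between the labels. Alas2 gave 16.7 CPM per 1000 CPM of globin in the KO-labelled male and 8.41 to 11.8 in the other 5 libraries.

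Slc4a1, which exchanges chloride for bicarbonate across the red cell membrane and anchors its skeleton, had the widest range. It was at 50.1 CPM in the KO-labelled male and at 0.583 and 0.689 CPM in its females, against 7.68 CPM in the WT-labelled male and 1.34 and 0.544 CPM in its females. The lowest of these values rests on about 11 reads and the highest on about 1285, so the females' levels are the less precise. The KO-labelled male was 78.8-fold above the mean of the females of its label, and the WT-labelled male 8.16-fold above the mean of its own. Relative to globin, Slc4a1 gave 8.71 and 2.81 CPM per 1000 CPM of globin in the KO-labelled and WT-labelled males, against 0.463 to 0.841 in the females. This ratio varied 18.8-fold over the 6 libraries.

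Bpgm had the narrowest range and was the only member in which the males and females overlapped. It was at 70.8 CPM in the KO-labelled male and at 33.02 and 28.5 CPM in its females, against 34.8 CPM in the WT-labelled male and 36.5 and 28.2 CPM in its females. The KO-labelled male stood alone, and the other 5 libraries lay within 28.2 to 36.5 CPM. Per 1000 CPM of globin, Bpgm gave 12.3 and 12.8 CPM in the KO-labelled and WT-labelled males, against 22.9 to 33.9 in the females. Its r with the other members ran from 0.903 to 0.941 over the 6 libraries. Over the 4 females its r with the globin genes ran from 0.941 to 0.995, while that of Alas2 with them ran from 0.733 to 0.938.

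**Figure D2:**
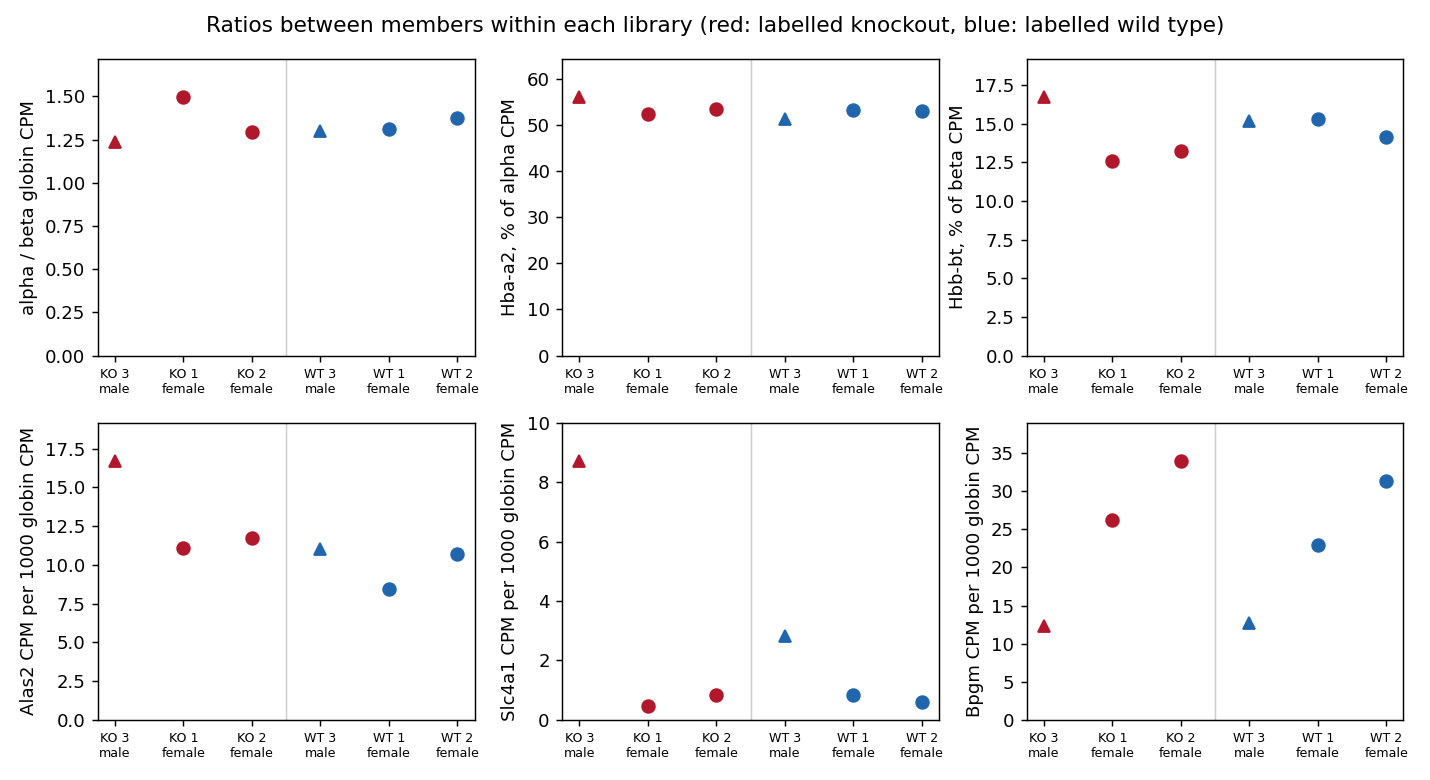
Ratios between members within each library (linear axes from 0, labelled knockout left in red, labelled wild type right in blue, triangles for males). The alpha to beta ratio stays between 1.24 and 1.495, while Slc4a1 per 1000 CPM of globin runs from 0.463 to 8.71.

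Between the sexes, Alas2 and Slc4a1 rose in males and the 4 globin genes lay just outside the threshold. Limma was fitted to log2(CPM + 0.5) of 17382 genes, with terms for sex and for the genotype label, and read at a Benjamini-Hochberg adjusted p under 0.05. Slc4a1 averaged 28.9 ± 29.99 CPM in males (SD, n = 2) and 0.789 ± 0.372 CPM in females (SD, n = 4), a log2 difference of 4.02 (SE 0.61, limma adjusted p = 0.0332). Alas2 averaged 63.002 ± 46.6 CPM in males (SD, n = 2) and 11.7 ± 2.27 CPM in females (SD, n = 4), a log2 difference of 2.17 (SE 0.35, limma adjusted p = 0.0393). These were 2 of 7 members, both upward, where 0.834% of all genes tested passed in either direction and 0.627% upward.

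The globin genes differed between the sexes by similar amounts to one another. The log2 difference, male minus female, was 1.77 for Hba-a1 (SE 0.32), 1.80 for Hba-a2 (SE 0.35), 1.86 for Hbb-bs (SE 0.33) and 2.09 for Hbb-bt (SE 0.39), with limma adjusted p between 0.0522 and 0.0599. Bpgm was at 0.65 (SE 0.24, limma adjusted p = 0.251). The median over the 7 members was 1.86, beside -0.05 over all genes tested. Both males lay above all 4 females for 6 of 7 members, as did 9.08% of all genes in the table. The males are 2 libraries and one of them stands apart, so sex and other differences between these lungs cannot be told apart.

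The size of the difference rested on the KO-labelled male, in Bpgm nearly all of it, and its direction did not. With the WT-labelled male as the lone male, assumed to vary like the other libraries, the log2 difference was 2.56 for Slc4a1, 1.36 for Alas2, between 1.11 and 1.25 for the globins and 0.12 for Bpgm (limma adjusted p = 0.85), and Alas2 and Slc4a1 still passed limma. With the KO-labelled male as the lone male all 7 members passed, at 5.48 for Slc4a1, 2.98 for Alas2 and 1.19 for Bpgm. The calls of Slc4a1 and Alas2 were lost without KO-labelled library 1 (limma adjusted p = 0.0979 and 0.122), without KO-labelled library 2 (0.162 and 0.153) and without WT-labelled library 2 (0.0758 and 0.0868), and that of Alas2 also without WT-labelled library 1 (0.0559). Without WT-labelled library 1, Hba-a1, Hbb-bs and Hbb-bt passed. Over all alternatives the limma adjusted p of Slc4a1 ran from 0.00114 to 0.162 and that of Alas2 from 0.00197 to 0.168.

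Between the genotype labels no member differed beyond the spread of the libraries. Hbb-bs averaged 967 ± 1019 CPM in the KO-labelled libraries and 639 ± 344 CPM in the WT-labelled ones (SD, n = 3 each), a log2 difference of 0.21 (SE 0.31, limma adjusted p = 0.866). Hba-a1 averaged 661 ± 645 CPM in the KO-labelled libraries and 474 ± 257 CPM in the WT-labelled ones (SD, n = 3 each). Slc4a1 had the largest difference among the members, 0.68 (SE 0.57, limma adjusted p = 0.783), at 17.1 ± 28.6 CPM in the KO-labelled libraries and 3.19 ± 3.91 CPM in the WT-labelled ones (SD, n = 3 each). Limma called 0 of 7 members, and 0 of 7 had an unadjusted p under 0.05; over all genes tested these shares were 0.0115% and 5.13%.

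Among the females alone the members leaned the other way without a call. In the 4 females the log2 difference, labelled knockout minus labelled wild type, was -0.19 for Hba-a1, -0.21 for Hba-a2, -0.22 for Hbb-bs, -0.43 for Hbb-bt, -0.29 for Slc4a1, -0.06 for Bpgm and 0.04 for Alas2, each with a limma adjusted p that rounds to 1.0. Leaving out either male gives these same differences, because the sex term then takes up the other male. The sign of the genotype difference of 6 members therefore depended on the males. The KO-labelled male had 1.86 times the Hba-a1 CPM, 2.13 times the Hbb-bs CPM and 6.52 times the Slc4a1 CPM of the WT-labelled male, a comparison of 1 library with 1 that has no replicate check.

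The genotype difference in males minus that in females was positive for all 7 members and passed for none. It was largest for Slc4a1 (log2 2.92, SE 0.64, limma adjusted p = 0.0558) and smallest for Bpgm and Hba-a1 (1.08 and 1.09, SE 0.29 and 0.48). Limma called 0 of 7 members, where 2.54% of all genes tested passed, 0.702% upward and 1.84% downward, and 6 of 7 members had an unadjusted p under 0.05, where 17.9% of all genes did. The median over the members was 1.38, beside -0.13 over all genes tested. With 1 male per label the spread comes from the females. Without WT-labelled library 2, 6 members passed (limma adjusted p from 0.00688 for Hbb-bt to 0.0487 for Hba-a2). Over the alternatives these p-values ran from 0.00688 to 0.335 for Hbb-bt and from 0.0487 to 0.398 for Hba-a2.

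**Figure D3:**
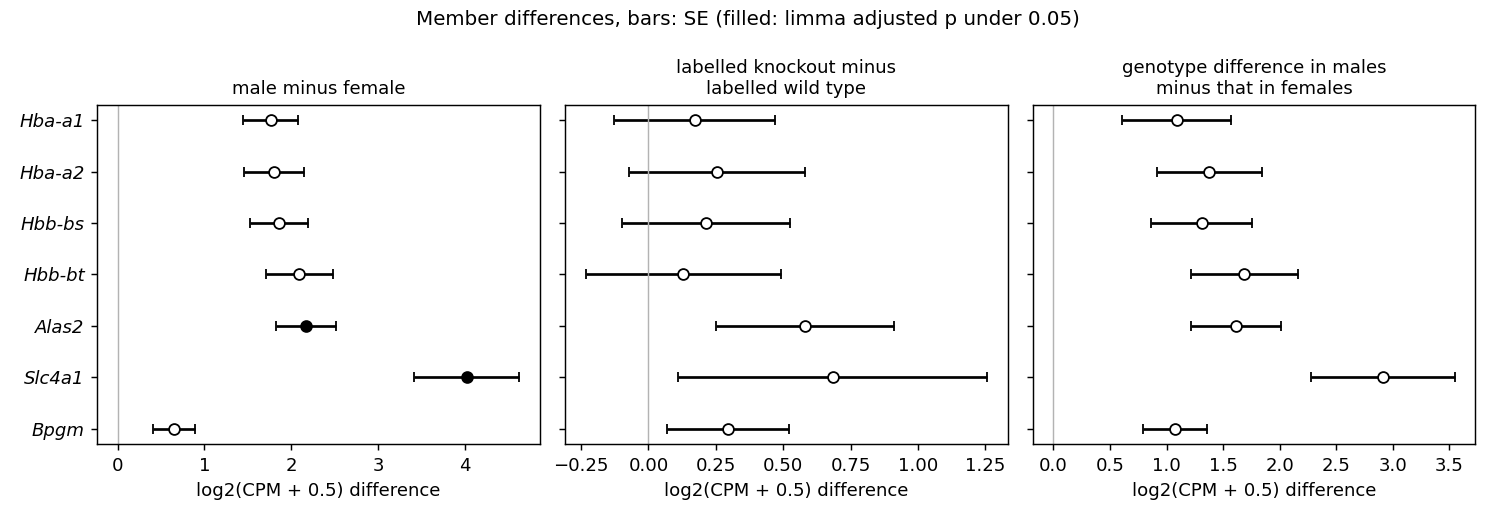
Log2(CPM + 0.5) differences of the 7 members with their SE: male minus female (left), labelled knockout minus labelled wild type (middle), and the genotype difference in males minus that in females (right), with filled points past limma at an adjusted p under 0.05. Alas2 (2.17) and Slc4a1 (4.02) are filled in the left panel, and no point is filled in the other panels.

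Other genes of the red cell were looked up in lists. Of the 20 genes of the red cell membrane and its skeleton, all were found and 16 reached the mean of 0.5 CPM needed for the test. The median of those 16 between the sexes was 0.6, beside -0.05 over all genes tested. In the KO-labelled male, 11 of the 20 were more than 2-fold above each of the other 5 libraries, as were 5 of the 7 members and 2.76% of all genes in the table. Epb41, protein 4.1 that ties spectrin to actin, passed the difference between the sexes' genotype effects (log2 1.35, SE 0.22, limma adjusted p = 0.0184). It was at 398 CPM in the KO-labelled male and 144 and 158 CPM in its females, against 162 CPM in the WT-labelled male and 142 and 174 CPM in its females. The call of Epb41 was lost without KO-labelled library 1 (limma adjusted p = 0.0613), with no filter on low genes (0.175) and without a variance trend (0.174), within 0.00344 to 0.175 over the alternatives, and it was the 1 call of the list in any of the comparisons.

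Membrane proteins largely restricted to the red cell lineage were near the limit of detection in the females; these genes were chosen after their values were seen. Rhag, the Rh-associated glycoprotein, was at 2.92 and 0.384 CPM in the KO-labelled and WT-labelled males, and 3 of 4 females lay below the level worth 3 reads. Epb42, protein 4.2, was at 5.19 and 0.811 CPM in the KO-labelled and WT-labelled males and at most 0.148 CPM in females. Kel, the Kell blood group protein, was at 1.17 and 0.342 CPM in the KO-labelled and WT-labelled males and without a read in the 4 females. Limma called neither Rhag nor Epb42 between the sexes (log2 differences 1.71 and 2.23, limma adjusted p = 0.156 and 0.105), and Kel was below the level for testing.

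Of the erythroid transcription factors, 9 of 11 were tested and none passed in any comparison. Nfe2, a factor that drives globin genes and is also active in megakaryocytes, was at 51.97 CPM in the KO-labelled male and 8.74 and 5.95 CPM in its females, against 15.97 CPM in the WT-labelled male and 10.2 and 5.14 CPM in its females (male minus female log2 1.93, SE 0.41, limma adjusted p = 0.0858). Gata1, the master regulator of the lineage, was at 5.69 and 1.02 CPM in the KO-labelled and WT-labelled males and at 0.247 to 0.896 CPM in the females (log2 1.43, SE 0.46, limma adjusted p = 0.198). Without the KO-labelled male these differences were 1.085 for Nfe2 and 0.63 for Gata1, and without the WT-labelled male they were 2.77 and 2.22 and passed limma (adjusted p = 0.0107 and 0.0465). Over all alternatives the limma adjusted p ran from 0.0107 to 0.253 for Nfe2 and from 0.0465 to 0.63 for Gata1. The list's median between the sexes was 0.01, beside -0.05 over all genes tested.

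Among 20 reticulocyte maturation genes, 19 were found and 17 tested. Ube2l6, a ubiquitin-like conjugating enzyme that is also induced by interferon, rose in males and was the 1 call of this list. It was at 52.5 and 66.4 CPM in the KO-labelled and WT-labelled males and at 26.5 to 34.1 CPM in the females (log2 0.95, SE 0.16, limma adjusted p = 0.0423). Its call was lost in 5 of the 6 fits that left out 1 library (limma adjusted p from 0.064 without WT-labelled library 3 to 0.187 without KO-labelled library 2) and held without KO-labelled library 3 (0.0204). Unlike the members, Ube2l6 was higher in the WT-labelled male than in the KO-labelled male.

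The list of haem synthesis genes did not follow Alas2 in these bulk lung levels, which do not separate red cell precursors from other cells. All 13 further genes of the pathway and its transporters were tested and none passed in any comparison, with a median of 0.01 between the sexes. Of the 13, 3 were highest in the KO-labelled male and 3 in the WT-labelled male. Fech, chosen after its values were seen, was at 67.4 and 48.2 CPM in the KO-labelled and WT-labelled males and at 43.7 to 50.9 CPM in the females. Alad, which joins 2 molecules of the ALAS product, had a male minus female log2 difference of -0.43 (SE 0.13, limma adjusted p = 0.175), and Slc25a37, the mitochondrial iron importer mitoferrin, one of 0.43 (SE 0.15, limma adjusted p = 0.218). Alas1, the form of the first enzyme used outside the red cell lineage, was at 456 CPM in the KO-labelled male and 508 and 598 CPM in its females, against 654 CPM in the WT-labelled male and 527 and 739 CPM in its females; it was chosen after its values were seen.

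**Figure D4:**
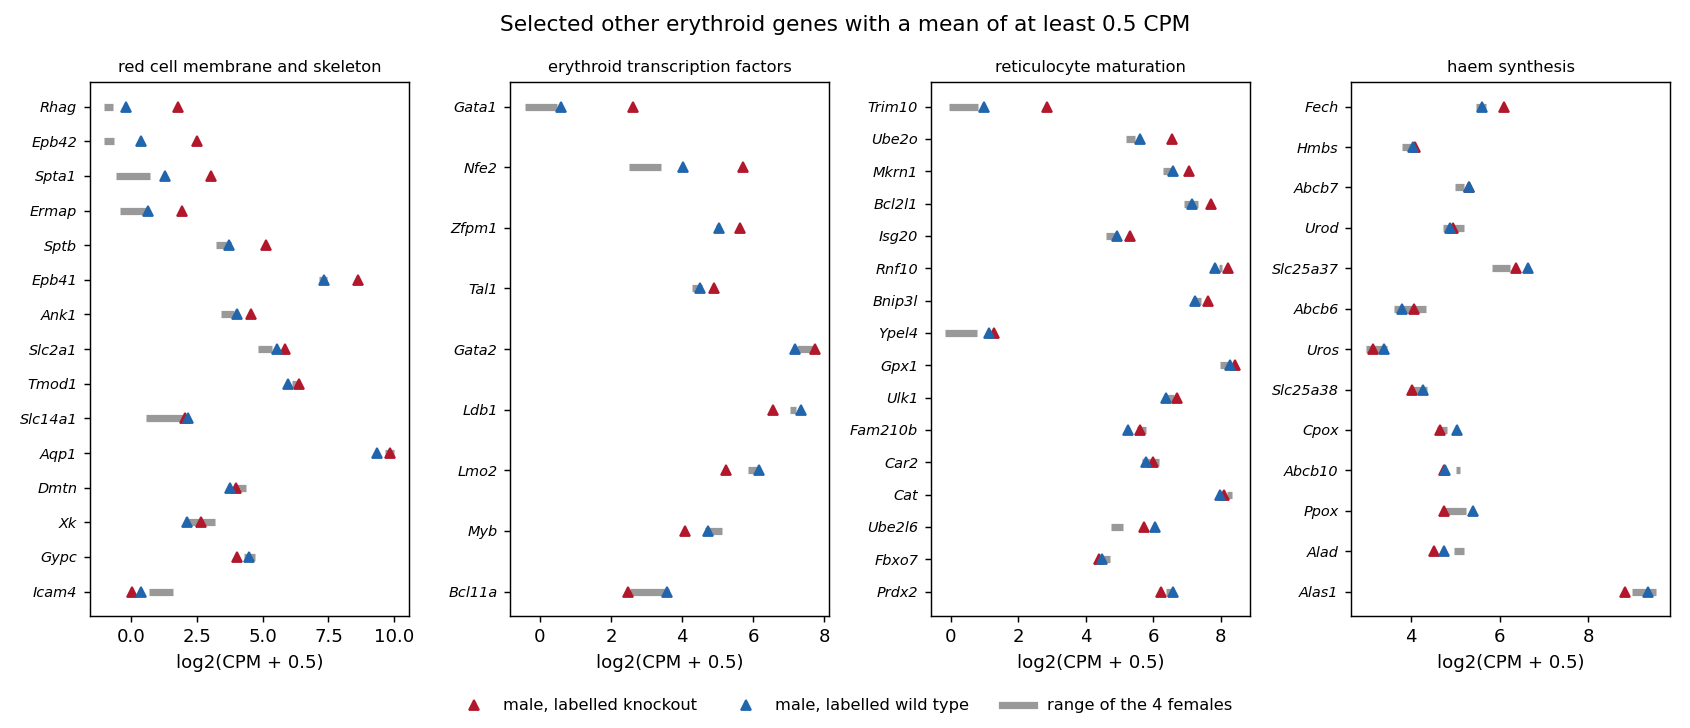
Log2(CPM + 0.5) of selected other erythroid genes with a mean of at least 0.5 CPM in the KO-labelled male (red), the WT-labelled male (blue) and the range of the 4 females (grey bars). Rhag, Epb42 and Nfe2 lie right of the grey bars in both males, while the haem synthesis genes lie on either side of them or within.

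Genes of iron handling, clearance and red cell metabolism gave 1 call. Slc40a1, the iron exporter ferroportin, was at 40.5 CPM in the KO-labelled male and 15.01 and 12.9 CPM in its females, against 14.0 CPM in the WT-labelled male and 15.4 and 13.8 CPM in its females. It passed the difference between the sexes' genotype effects (log2 1.57, SE 0.31, limma adjusted p = 0.042), and the call was lost without KO-labelled library 1 (limma adjusted p = 0.0832), KO-labelled library 2 (0.112) or WT-labelled library 1 (0.0602), within 0.0164 to 0.178 over the alternatives. The other 9 genes of erythroid receptors and iron uptake, all 10 of haem and haemoglobin clearance and all 15 of glycolysis passed in no comparison. In glycolysis, the pathway off which BPGM branches, Gapdh and Pkm had the smallest p between the sexes (log2 0.57 and 0.61, SE 0.12 and 0.13, limma adjusted p = 0.0858 and 0.0898). In the clearance list, Flvcr1, a haem exporter, and Cd163, the receptor for haemoglobin bound to haptoglobin, had male minus female log2 differences of 0.45 and 0.60 (limma adjusted p = 0.201 and 0.362).

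Of 12 other globin genes listed, 5 were found and 3 tested, with no call. Hbq1b and Hbq1a, theta globin genes of the alpha cluster, were too low for the test; they were picked with their values in view. Hbq1b was at 1.01 and 0.214 CPM in the KO-labelled and WT-labelled males and at most 0.198 CPM in the females. Hbq1a was at 0.351 and 0.0428 CPM in the KO-labelled and WT-labelled males and at most 0.179 CPM in the females. Cygb, cytoglobin of fibroblasts, had a male minus female log2 difference of -0.40 (SE 0.18) and Mb, the muscle oxygen store myoglobin, one of 0.26 (SE 0.15), with limma adjusted p of 0.336 and 0.465. The difference of Cygb was -0.08 without the KO-labelled male. Of 14 other anion exchangers and carbonic anhydrases, none passed; Slc4a4 and Slc4a5, bicarbonate cotransporters of the same family as Slc4a1, had differences of -0.48 and -0.39 (SE 0.16 and 0.17, limma adjusted p = 0.222 and 0.325).

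Markers of other blood cells moved in the same library as the members. The summed level of 12 neutrophil markers was 7535 CPM in the KO-labelled male and 338 and 272 CPM in its females, against 623 CPM in the WT-labelled male and 335 and 333 CPM in its females. The summed level of 12 platelet markers was 644 CPM in the KO-labelled male and 92.9 and 98.3 CPM in its females, against 138 CPM in the WT-labelled male and 136 and 92.7 CPM in its females. All 12 markers of each list were highest in the KO-labelled male, as were 18.1% of all genes in the table. The 7 members summed to 3.63 times the highest female there, the platelet markers to 4.72 times and the neutrophil markers to 22.3 times. Their part in the members' values was not tested.

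Named markers of these lists passed the difference between the sexes' genotype effects, which again sets 1 male against 1. With no filter, or without a variance trend, limma called 0 genes of the whole table in this comparison, where 3367 and 2641 genes had an unadjusted p under 0.05. Ngp, Camp, Mmp8 and Ly6g of neutrophils were 4 of 10 higher calls among 12, and Ppbp, Tubb1, Gp9 and Pf4 of platelets 4 of 6 higher calls among 12. Lcn2, a neutrophil granule protein that epithelium also makes, rose in males (log2 2.58, SE 0.39, limma adjusted p = 0.032) and lost this call without KO-labelled library 1, KO-labelled library 2 or WT-labelled library 1 (0.0869, 0.162 and 0.0893; 0.000146 to 0.168 over the alternatives). Lcn2 also passed the difference between the sexes' genotype effects (log2 2.02, SE 0.27, limma adjusted p = 0.00908; 0.00114 to 0.167 over the alternatives). Mpo and Prtn3, granule genes made by marrow progenitors of neutrophils, were at 15.5 and 13.7 CPM in the KO-labelled male, against at most 0.168 and 1.39 CPM in the other 5 libraries. Elane, another such gene, was at 2.53 CPM in the KO-labelled male and below the level worth 3 reads in the other 5; it was chosen after its values were seen. The 10 markers of marrow progenitors that hold these genes did not move together. Of the 10, 5 were highest in the KO-labelled male, as were 18.1% of all genes in the table. The summed level of the 10 was 282 CPM in that library, below the highest female at 325 CPM. Cd34 alone gave 146 CPM of that sum and Mecom 52.3 CPM, both picked with their values in view, so the sum says little about the low granule genes. Procr, in this list, was highest in the WT-labelled male, at 44.3 CPM against 4.29 CPM in the KO-labelled male. The call of Gp9 was lost without KO-labelled library 1 (limma adjusted p = 0.056), that of Pf4 without KO-labelled library 1 or WT-labelled library 1 (0.0672 and 0.0553), and that of Prtn3 without KO-labelled library 1 (0.0542). With a pseudocount of 0.1 the calls of Ly6g and Mpo were lost (0.118 and 0.0638).

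The B cell, T cell and alveolar type 2 lists were low in the KO-labelled male, and the macrophage and endothelial lists were not. The summed level of 8 B cell markers was 89.5 CPM in the KO-labelled male and 224 and 300.3 CPM in its females, against 291 CPM in the WT-labelled male and 178.6 and 300.5 CPM in its females. That of 8 T cell markers was 38.4 CPM in the KO-labelled male and 177.6 CPM in the WT-labelled male, with 44.2 to 63.2 CPM in the females. The 8 alveolar type 2 markers summed to 14957 CPM in the KO-labelled male and 16472 CPM in the WT-labelled male, below each of the females, at 19278 to 21015 CPM. The 8 lung macrophage markers summed to 390.1 CPM in the KO-labelled male and 192 and 194 CPM in its females, against 488 CPM in the WT-labelled male and 407 and 342 CPM in its females. A single gene of the 8 gave 231 CPM of this sum in the KO-labelled male and 58.4 and 64.5 CPM in its females. That gene gave 238 CPM in the WT-labelled male and 279 and 224 CPM in its females. Limma called 1 of the 8 markers higher and 2 lower in the difference between the sexes' genotype effects. The 8 capillary endothelial markers summed to 4275 CPM in the KO-labelled male and 4211 and 4126 CPM in its females, against 2899 CPM in the WT-labelled male and 4436 and 3595 CPM in its females. Limma called none of them in that comparison, and 4 of the 8 had an unadjusted p under 0.05.

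The genes whose pattern was most like that of the globins were outside the gene lists used here. Likeness was Pearson's r over the 6 libraries between log2(CPM + 0.5) and the mean of the 4 globin genes, among 16016 other genes with a mean of at least 1 CPM, of which 291 had an r over 0.9. The 10 highest, with r from 0.986 to 0.995, were Nfam1, Gm9733, Hus1, Arhgdib, Msrb1, Celf2, Irak3, E2f2, Trem3 and Tbc1d14. Nfam1, a receptor of white blood cells, was at 143 CPM in the KO-labelled male and 44.4 and 36.0 CPM in its females, against 79.995 CPM in the WT-labelled male and 53.5 and 32.3 CPM in its females. Arhgdib was at 187 CPM in the KO-labelled male and 67.9 and 56.01 CPM in its females, against 127 CPM in the WT-labelled male and 78.3 and 50.7 CPM in its females. Arhgdib passed limma between the sexes (log2 1.30, SE 0.21, limma adjusted p = 0.0383) and the other 9 did not. With 6 libraries, many genes reach such an r.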

How the data were processed

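Gene expression was measured by RNA-seq of total RNA in 6 mouse lung libraries, and the deposited CPM values, made by the authors, were used: 1 column per library, with 0.0001 added to every value. The submitters' processing notes name mm10, TopHat2 and Partek but give no version or role; nothing used here states the annotation, filters or strand. Positions, exon lengths and transcripts come from GENCODE M21 (same build), which holds 99.75% of the gene identifiers, and promoters from RefSeq.

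Depth was read from the step between low values. Between 82.2% and 83.4% of values of up to 100 reads per library were whole multiples of it within 0.05, so whole reads could not be had and count models were left out. A level worth 3 reads lay between 0.109 and 0.148 CPM and covers counting error only.

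Limma 3.58.1 (R 4.3.3, variance trend) was fitted to log2(CPM + 0.5) of the 17382 genes with a mean of at least 0.5 CPM, which understates changes of low genes; adjustment was over all of them, two-sided. The interaction fit adds the product of label and sex. The fits were tested on 3 simulated tables per comparison, with spreads dealt out at random over the genes, unlike the data. Of log2 changes of 1, 48.3% were recovered between the labels and 40.3% between the sexes. Of log2 changes of 2 in the interaction, 12% were recovered. Of larger changes (log2 2, 2 and 5), 83%, 84.3% and 82.7% were recovered. Changes of the smaller sizes can therefore be missed. Levels, ratios and figures were made with numpy 2.4.6, pandas 2.3.3 and matplotlib 3.10.9 under Python 3.11.15. Where 2 rows share a symbol the higher was taken.

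Named genes were the members, list genes past the threshold (4 of largest change) or the 2 of smallest p between the sexes, the 10 most like the globins, and Cyp1b1, Xist and Ddx3y. Single genes of the B cell, T cell, epithelial, endothelial and macrophage lists are not named. Members and lists were chosen with earlier results of these data known. Alternatives were pseudocounts of 0.1 and 1, other filters, quantile normalization, median centring, rescaling without the members, other variance models, other terms, the females alone and each library left out. Some genes that were counted in the lists are not reported here by name.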

Additional observations from a re-analysis of the deposited data

Results flagged for a closer look

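The difference between the sexes' genotype effects, tested by limma's interaction term, passed for none of the 7 members. It passed for the following other genes named above, and each such value rests on 1 male per label. In the red cell and iron lists these were Epb41 (log2 1.35) and Slc40a1 (1.57). Among platelet markers they were Ppbp (3.62), Tubb1 (3.01), Gp9 (2.97) and Pf4 (2.40). Among neutrophil and marrow progenitor markers they were Ngp (7.62), Camp (6.58), Mmp8 (5.56), Ly6g (5.40), Lcn2 (2.02), Mpo (5.09) and Prtn3 (3.43), with Procr at -3.23. Within the 4 females, no member had a library whose gap to the next exceeded Dixon's 95% critical value for 4 samples; the closest was Slc4a1, where WT-labelled library 1 (1.34 CPM) lay 0.818 of the range above the next.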

How the results depend on the processing

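The genotype comparison called 0 of 7 members under every alternative run. In the 4 females alone its log2 difference was -0.192 for Hba-a1, -0.205 for Hba-a2, -0.222 for Hbb-bs, -0.433 for Hbb-bt, -0.289 for Slc4a1 and -0.064 for Bpgm, against values above 0 over all libraries. With 1 library left out it ran from -0.192 to 0.499 for Hba-a1, -0.205 to 0.612 for Hba-a2, -0.222 to 0.578 for Hbb-bs, -0.433 to 0.566 for Hbb-bt, -0.289 to 1.195 for Slc4a1 and -0.064 to 0.501 for Bpgm. The sex comparison called 2 members over all libraries, 5 with no filter, 6 with quantile normalization, 1 with robust moderation, 0 without a variance trend and from 0 to 7 with 1 library left out. The difference between the sexes' genotype effects called 0 members over all libraries, 1 with a pseudocount of 1, 4 with median centring, 1 with robust moderation and from 0 to 6 with 1 library left out; it could not be fitted without a male. Without the genotype label term the sex comparison called 3 members, Hba-a1, Hbb-bs and Slc4a1, so the call of Alas2 was lost there. The cause of these changes was not tested. Rescaling without the members left every count of members called as it was. All other differences of the members kept their sign under the alternatives. No paired analysis was possible because library numbers follow accession order and no label pairs libraries. Median centring moved the median of all genes from -0.0561 to 0.0471 between the labels and from -0.134 to 0.0911 in the difference between the sexes' genotype effects, and its 348 higher and 313 lower calls there stand beside 122 and 319. The 2 males and 1 male per label limit each sex and interaction value.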
